A study of Mus musculus with 18 samples.

Results

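The genes described here set the balance between active and inactive Ras: the 4 RasGRP exchange factors (Rasgrp1, Rasgrp2, Rasgrp3 and Rasgrp4), the SOS exchange factors (Sos1 and Sos2) and 4 Ras GTPase-activating proteins (Rasa1, Rasa2, Rasa3 and Nf1). They were chosen by symbol, with their counts in these 6 groups of libraries known from earlier results, so their values are a description of genes picked with the data in view. All 10 were found in the count table of 23337 gene symbols. Of the 11118 genes with enough reads to be tested, 9 were members, and Rasgrp3 was the member left out. Setting aside the group in which a member was highest did not change which members passed this filter on low counts.

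Invariant natural killer T (iNKT) cells, T cells that recognise lipid antigens on CD1d, were sorted from the thymus of mice on the BALB/c background and sequenced as 18 poly-A RNA libraries, 3 for each of 6 groups. The WT and SKG mice were, per the study's methods, separately bred offspring of a cross of BALB/cJ with SKG mice, and SKG mice carry a hypomorphic point mutation in Zap70, the kinase that relays the T cell receptor (TCR) signal. The labels name no treatment, and the age of these mice was not given in the sources used here. NKT1 cells were sorted as CD1d tetramer+ ICOSlo CD49a+, NKT2 cells as CD49a- Sdc-1- ICOShi CD4hi TCRβhi, and NKT17 cells as CD49a- ICOShi Sdc-1+. The labels do not say whether the 3 libraries of a group came from separate mice, so p-values measure the spread between libraries, which may be partly technical.

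Ras is switched on by exchange factors, which load it with GTP, and switched off by GTPase activators, which speed up the hydrolysis of that GTP. In T cells, ZAP70 phosphorylates the adaptor LAT. LAT then holds SOS through GRB2 and also recruits phospholipase Cγ1, whose product diacylglycerol brings RasGRP1 to the membrane. RasGRP1 is the main RasGRP of thymocytes, RasGRP2 acts mostly on the related GTPase Rap1, RasGRP3 is best known from B cells and RasGRP4 from mast and myeloid cells.

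Between 4391029 and 8895917 reads per library were assigned to genes, and the NKT1 and NKT17 markers followed the labels in every library. The summed NKT1 markers were 3948 to 5607 CPM (counts scaled to library size) in NKT1 libraries and 161 to 424 CPM in the others, and the summed NKT17 markers were 2155 to 2252 CPM in NKT17 libraries and at most 13.9 CPM elsewhere. The summed NKT2 markers (Zbtb16, Il4, Gata3 and Icos) did not set NKT2 apart from NKT17 cells in SKG mice, at 1066 to 1372 CPM in SKG NKT2 and 1286 to 1400.5 CPM in SKG NKT17 cells, against 1675 to 1805 and 1317 to 1480.4 CPM in WT and at most 644 CPM in NKT1 cells. In SKG mice, Il4 was at 75.6 to 119 CPM in NKT2 and 11.1 to 14.6 CPM in NKT17 cells. Zbtb16 was at 154 to 230 CPM in SKG NKT2 and 98.6 to 122 CPM in SKG NKT17 cells. Icos and Gata3 were lower in all SKG NKT2 than in all SKG NKT17 libraries. The part of these markers in the results on NKT2 cells was not tested. Of the lists for other cell types, all 4 mast cell genes together stayed at or under 0.531 CPM, all 5 platelet genes at or under 1.21 CPM, the 4 red cell genes found at or under 1.45 CPM and all 6 myeloid genes at or under 14.2 CPM. The 5 B cell genes summed to 24.8 to 40.7 CPM in SKG NKT17 cells, 7.82 to 11.1 CPM in WT NKT17 cells and at most 5.95 CPM elsewhere, nearly all of it Cd79b, with Pax5 at 0 in every library. The 6 genes of double-positive thymocytes summed to 14.3 to 47.5 CPM in SKG NKT17 cells and 5.27 to 12.5 CPM in WT NKT17 cells. They summed to 2.78 to 13.8 CPM in WT NKT1 cells and at most 5.62 CPM elsewhere. Rag1, Rag2 and Dntt were at 0 in both NKT17 groups. Zap70 was transcribed in all libraries, at lower means in SKG. It was at 421 to 529 CPM in SKG against 516 to 605 CPM in WT NKT1 cells. In NKT2 cells it was at 360 to 436 against 483 to 574 CPM, and in NKT17 cells at 453 to 565 against 716 to 852 CPM. No test of Zap70 is given here, and its level says nothing about a point mutation.

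Levels are given as CPM after TMM scaling, as mean ± SD over the 3 libraries of a group. Shares of all tested genes whose libraries did not overlap are given only for genes higher in SKG than in WT. Other statements that libraries or groups were apart have no such share beside them and are descriptions. A gene was called where its adjusted p in the edgeR quasi-likelihood test (2-sided, Benjamini-Hochberg over the 11118 genes) was under 0.1 and its fold change at least 1.5, the thresholds of the study.

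Rasgrp1, on chromosome 2 (117105729 to 117168737, minus strand, NCBIM37), was highest in NKT17 cells. It was read at 322, 249 and 351 CPM in WT NKT17 cells, at 111, 129 and 88.0 CPM in WT NKT1 cells, and at 61.1, 41.8 and 55.4 CPM in WT NKT2 cells. These groups did not overlap. On the log2 scale, Rasgrp1 was 2.54 ± 0.18 (SE) higher in NKT17 than in NKT2 cells (adjusted p = 4.36e-10), and NKT1 cells exceeded NKT2 cells by 1.05 ± 0.17 (adjusted p = 6.14e-05). It was 1.49 ± 0.17 lower in NKT1 than in NKT17 cells, written as a log2 fold change of -1.49 (adjusted p = 4.15e-07).

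Rasgrp2, on chromosome 19 (6399340 to 6415216, plus strand), had another order. It was read at 108, 85.5 and 102 CPM in WT NKT1 cells, at 34.0, 45.0 and 28.8 CPM in WT NKT17 cells, and at 28.2, 27.6 and 25.4 CPM in WT NKT2 cells. The NKT1 libraries stood clear of both other subsets, by 1.86 ± 0.16 on the log2 scale over NKT2 cells (adjusted p = 2.76e-09) and by 1.46 ± 0.15 over NKT17 cells (adjusted p = 7.87e-08). NKT17 and NKT2 cells differed by 0.41 ± 0.16 (adjusted p = 0.0650), under the 1.5-fold minimum, although their libraries did not overlap.

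Which of these genes is the more abundant depends on the length it is divided by. Over merged exons of the GENCODE M1 annotation (5598 bases for Rasgrp1, 12384 bases for Rasgrp2) the Rasgrp1 level per kilobase was 1.91 to 3.32 times that of Rasgrp2 in WT NKT1 libraries. Over the longest coding transcript (5229 and 2296 bases) it was 0.380 to 0.660 times that of Rasgrp2. In WT NKT17 libraries the per-kilobase ratio was 12.2 to 26.9 by merged exons and 2.43 to 5.35 by the longest coding transcript, so Rasgrp1 led there by either length. In SKG NKT17 libraries the ratio was 12.4 to 14.9 and 2.46 to 2.97.

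Rasgrp3 was close to undetected, with 26 reads in all over 18 libraries and 0 to 4 in each. Only 1 library held more than 3 reads, and 3 reads in the deepest library correspond to 0.362 CPM. Rasgrp4 was low, at 1.39 to 5.78 CPM (8 to 36 reads), and 18.2% of its exon bases are overlapped by exons of Fam98c and Gm16282 on the opposite strand. The strand setting of the counting was not given in the sources used here, so reads of Rasgrp4 and these neighbours cannot be told apart in the overlapped bases. Rasgrp4 was called in none of the comparisons between groups.

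**Figure D1:**
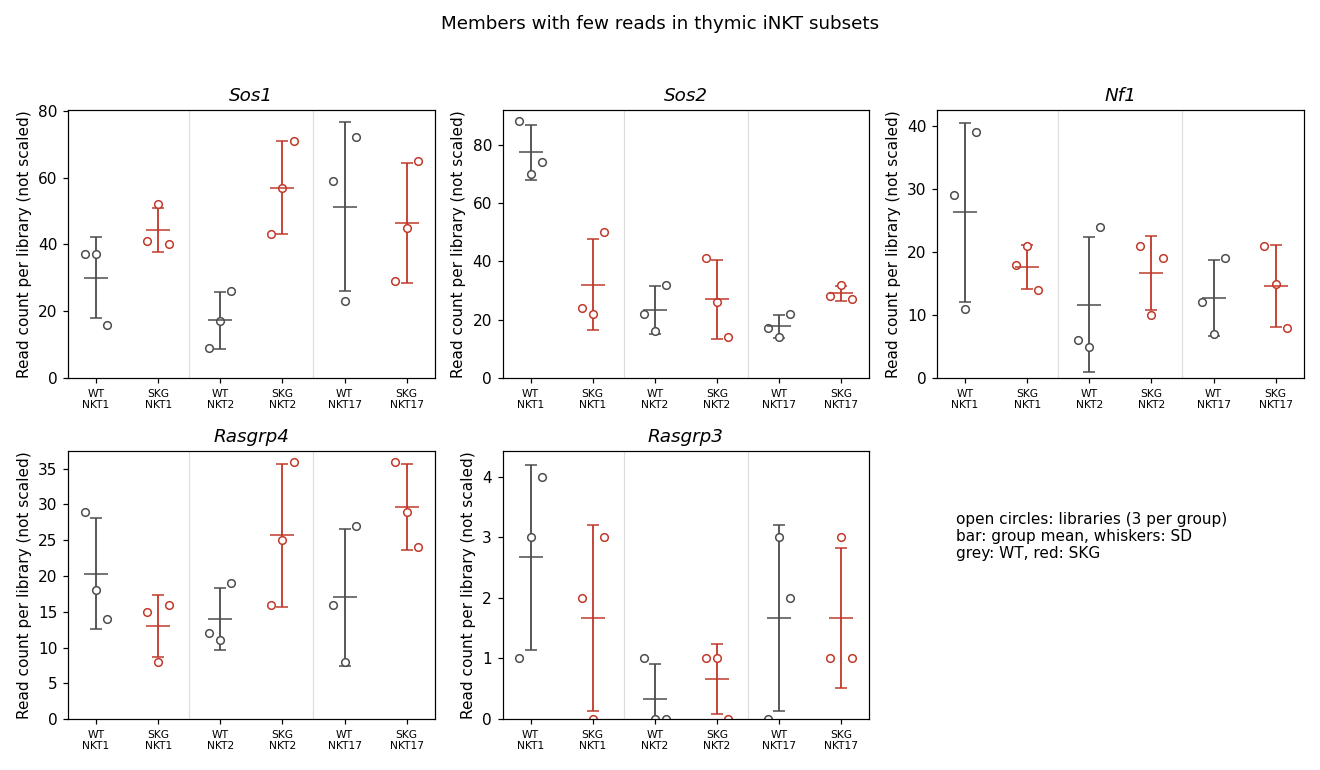
Unscaled read counts per library (y axis) of the 5 members with few reads, by group (x axis), with WT in grey and SKG in red. Circles are libraries, bars means and whiskers SD (n = 3). Rasgrp3 stays at 4 reads or fewer, and Sos2 reaches 70 to 88 reads in WT NKT1 cells.

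Both SOS genes rested on few reads. Sos2 (chromosome 12, 70684748 to 70782839, minus strand) was read at 10.6, 13.4 and 13.1 CPM in WT NKT1 cells, 4.50, 2.80 and 5.17 CPM in WT NKT2 cells and 3.32, 2.43 and 3.02 CPM in WT NKT17 cells. Its WT NKT1 libraries, with 70 to 88 reads, lay above all others of WT mice. The log2 fold changes were 1.57 ± 0.45 over NKT2 cells (adjusted p = 0.00926) and 2.07 ± 0.46 over NKT17 cells (adjusted p = 0.00122). Sos1 (chromosome 17, 80793092 to 80879793, minus strand) was read at 11.5, 4.00 and 9.88 CPM in WT NKT17 cells and 1.84, 2.97 and 4.20 CPM in WT NKT2 cells, with overlap of the groups. Its log2 difference of 1.47 ± 0.48 (adjusted p = 0.0282) was no longer called without WT NKT2 replicate 1 (1.23, adjusted p = 0.115) or without WT NKT17 replicate 1 (1.21, adjusted p = 0.118).

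Among the GTPase activators that are members, Rasa3, which acts on both Ras and Rap1, had the widest range of group means. Rasa3 (chromosome 8, 13566950 to 13677603, minus strand) was read at 269, 201 and 250 CPM in WT NKT1 cells, 78.7, 84.0 and 110 CPM in WT NKT17 cells and 52.5, 48.1 and 62.6 CPM in WT NKT2 cells. All 3 groups were apart from each other. NKT1 exceeded NKT2 cells by 2.14 ± 0.16 on the log2 scale (adjusted p = 4.20e-10) and NKT17 cells by 1.402 ± 0.15 (adjusted p = 1.74e-07). NKT17 exceeded NKT2 cells by 0.74 ± 0.16 (adjusted p = 0.00107), a value of 0.57 and under the fold minimum without WT NKT17 replicate 3.

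Rasa1 encodes p120 RasGAP and was highest in NKT2 cells, where Rasgrp1, Rasgrp2 and Rasa3 were lowest. It was read at 122, 87.9 and 104 CPM in WT NKT2 cells, 64.1, 68.9 and 37.4 CPM in WT NKT1 cells and 55.1, 43.1 and 24.7 CPM in WT NKT17 cells. The NKT2 libraries lay above all others. NKT1 cells were lower than NKT2 cells, at a log2 fold change of -0.88 ± 0.25 (adjusted p = 0.0102), and NKT17 cells were lower still, at -1.36 ± 0.25 (adjusted p = 0.000444). The NKT1 and NKT17 libraries overlapped and the difference of 0.48 ± 0.25 was not called (adjusted p = 0.184), but was called without WT NKT17 replicate 1 (0.73) or without WT NKT1 replicate 3 (0.71).

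Rasa2, another GTPase activator of the GAP1 family, varied least of the well-read members, with a highest group mean 1.88 times the lowest. It was read at 104, 96.0 and 110 CPM in WT NKT1 cells, 94.5, 74.4 and 98.8 CPM in WT NKT17 cells and 54.8, 62.4 and 47.5 CPM in WT NKT2 cells. NKT2 cells were below both others, by 0.91 ± 0.17 (adjusted p = 0.000190) from NKT1 and 0.70 ± 0.17 (adjusted p = 0.00334) from NKT17 cells on the log2 scale. Nf1, which encodes neurofibromin, was read at 0.874 to 6.91 CPM (5 to 39 reads) and was called in none of the comparisons. Per kilobase, Rasa3 exceeded Rasa1 by 4.50 to 10.3 times in WT NKT1 libraries over merged exons and 3.39 to 7.77 times over the longest coding transcripts. In WT NKT2 libraries the same ratios were 0.660 to 0.924 and 0.497 to 0.696.

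**Figure D2:**
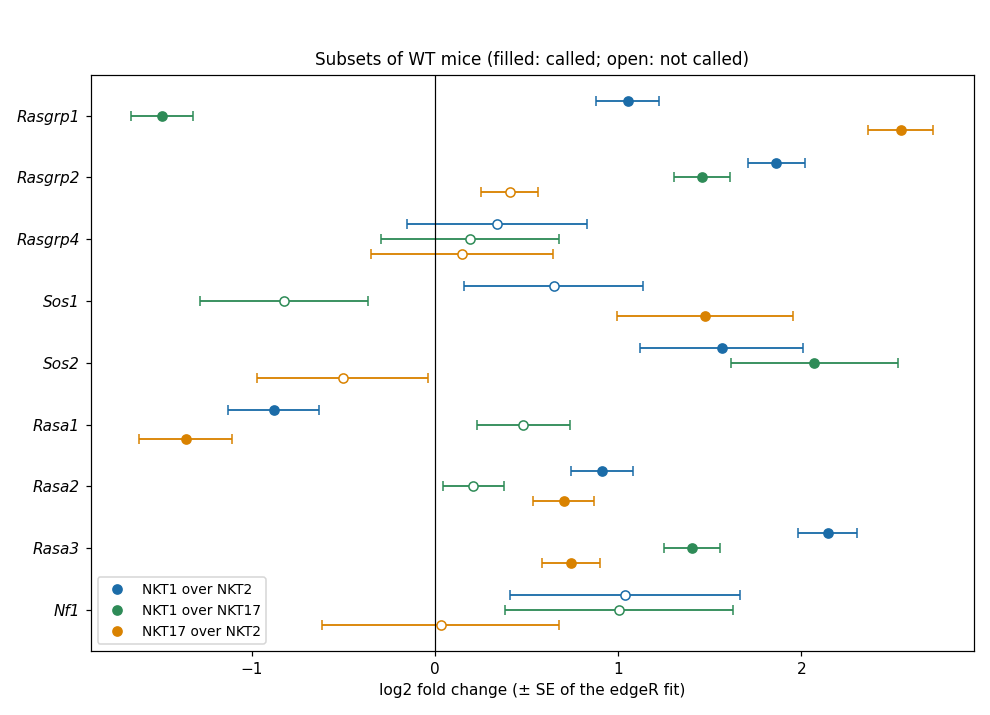
Log2 fold change (x axis, ± SE of the edgeR fit) of the 9 tested members between subsets of WT mice, with 1 row per gene. Filled points were called and open points were not. Rasgrp2, Sos2 and Rasa3 lie to the right of 0 for NKT1 against either other subset, Rasgrp1 lies at 2.54 for NKT17 over NKT2, and Rasa1 lies to the left of 0 for NKT1 and NKT17 over NKT2.

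Counted together, 6 of the 9 tested members were called between WT NKT1 and NKT2 cells (5 higher and 1 lower in NKT1), where 27.5% of all tested genes were called (13.7% higher and 13.7% lower). Between WT NKT1 and NKT17 cells 4 were called (3 higher and 1 lower in NKT1), beside 24.7% of all genes (11.2% higher and 13.5% lower). Between WT NKT17 and NKT2 cells 5 were called (4 higher and 1 lower in NKT17), beside 20.0% of all genes (11.0% higher and 8.97% lower). The median log2 difference over the 9 members was 1.04, 0.48 and 0.41 in these comparisons, and over all tested genes 0, -0.01 and 0.01.

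The comparison of SKG with WT cells within each subset asks how the members stood in mice whose ZAP70 signals poorly. Every call was an increase: Rasgrp2 rose in all 3 subsets, Rasgrp1 in NKT1 and NKT2 cells, Rasa3 in NKT2 and NKT17 cells and Sos1 in NKT2 cells. In NKT2 cells 4 of 9 members were called, beside 7.95% of all tested genes (3.90% higher). In NKT1 cells 2 were called, beside 3.27% (1.46% higher), and in NKT17 cells 2, beside 8.37% (3.83% higher). The median log2 difference over the 9 members stood at 0.03 for NKT1, 0.90 for NKT2 and 0.20 for NKT17 cells, and over all tested genes it was -0.01, 0 and 0. In these bulk libraries, a change in the make-up of the sorted cells and a change of RNA per cell cannot be told apart.

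Rasgrp2 was read at 171, 187 and 172 CPM in SKG NKT1 cells against 108, 85.5 and 102 CPM in WT. In NKT2 cells it was read at 50.7, 56.6 and 52.2 CPM against 28.2, 27.6 and 25.4 CPM, and in NKT17 cells at 48.2, 60.7 and 57.1 CPM against 34.0, 45.0 and 28.8 CPM. Every SKG library lay above every WT library of its subset, as was so for 7.62% of all tested genes in NKT1, 13.9% in NKT2 and 13.0% in NKT17 cells. The log2 increases were 0.84 ± 0.15 in NKT1 (adjusted p = 0.00169), 0.97 ± 0.16 in NKT2 (adjusted p = 0.000197) and 0.62 ± 0.15 in NKT17 cells (adjusted p = 0.0106). The last fell under the 1.5-fold minimum without WT NKT17 replicate 1 (0.58), WT NKT17 replicate 3 (0.49) or SKG NKT17 replicate 2 (0.55). The increases were not shown to differ between subsets, the widest difference being that of NKT17 and NKT2 cells (-0.35 ± 0.22, adjusted p = 0.623).

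Rasgrp1 was read at 89.9, 117 and 130 CPM in SKG NKT2 cells, above all WT NKT2 libraries, a log2 increase of 1.09 ± 0.17 (adjusted p = 0.000213). In SKG NKT1 cells it was read at 141, 187 and 173 CPM, above the WT NKT1 libraries by 0.61 ± 0.17 (adjusted p = 0.0535). That call was lost without SKG NKT1 replicate 2 (0.54, adjusted p = 0.190), SKG NKT1 replicate 3 (0.59, adjusted p = 0.147) or WT NKT1 replicate 3 (0.49, adjusted p = 0.175). NKT17 cells, where Rasgrp1 was highest, held 325, 365 and 320 CPM in SKG and overlapped with WT, with a log2 difference of 0.13 ± 0.16 (adjusted p = 0.721).

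The SKG difference of Rasgrp1 was smaller in NKT17 than in NKT2 cells, by -0.96 ± 0.24 on the log2 scale (adjusted p = 0.0444). It was the only member called in a difference of SKG effects between subsets, beside 2.19% of all tested genes for this contrast and 0 members beside 3.87% (NKT2 against NKT1) and 4.17% (NKT17 against NKT1) for the others. At an unadjusted p under 0.05 there were 2, 3 and 2 members in these contrasts, beside 1189, 1562 and 1652 of the 11118 tested genes. DESeq2 called 1, 0 and 0 members, the same numbers as edgeR. The call was lost when any one of 7 of the 12 libraries was left out, with values from -0.94 to -0.82 and adjusted p from 0.110 to 0.152: WT NKT2 replicate 2, WT NKT17 replicates 1 and 3, SKG NKT2 replicates 2 and 3, and SKG NKT17 replicates 1 and 3.

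Rasa3 was read at 94.3, 91.8 and 118 CPM in SKG NKT2 cells and 131, 152 and 165 CPM in SKG NKT17 cells, above every WT library of the same subset. The log2 increases were 0.90 ± 0.16 (adjusted p = 0.000488) and 0.71 ± 0.15 (adjusted p = 0.00361). In SKG NKT1 cells it was read at 283, 292 and 366 CPM, also above all WT NKT1 libraries, but the log2 difference of 0.38 ± 0.15 was not called (adjusted p = 0.222). The difference between the NKT2 and NKT1 values was 0.51 ± 0.22 (adjusted p = 0.266), so the SKG effect on Rasa3 was not shown to differ between these subsets.

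Sos1 was read at 9.47, 11.2 and 11.4 CPM (43 to 71 reads) in SKG NKT2 cells against 1.84, 2.97 and 4.20 CPM (9 to 26 reads) in WT, a log2 increase of 1.81 ± 0.48 (adjusted p = 0.0190). In NKT1 and NKT17 cells the genotypes overlapped. Sos2 was called in none of the SKG comparisons. In NKT1 cells it was read at 4.46, 4.58 and 8.66 CPM in SKG, below all WT libraries, with a log2 difference of -1.06 ± 0.44 (adjusted p = 0.263). In NKT17 cells it was read at 3.97, 5.58 and 5.07 CPM in SKG, above all WT libraries (2.43 to 3.32 CPM), and in NKT2 cells at 9.03, 5.09 and 2.25 CPM, overlapping with WT.

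Rasa1 and Rasa2 were called in none of the SKG comparisons. Rasa1 was at 107 ± 12.8 CPM in SKG NKT2 cells against 105 ± 17.3 in WT, at 57.9 ± 11.5 against 56.8 ± 17.0 in NKT1 cells and at 30.2 ± 5.36 against 41.0 ± 15.3 in NKT17 cells (n = 3 each). The log2 differences were 0.04 ± 0.25 in NKT2, 0.03 ± 0.25 in NKT1 and -0.43 ± 0.26 in NKT17 cells, the last called only without WT NKT17 replicate 3 (-0.69, adjusted p = 0.0836). Rasa2 differed by 0.25 ± 0.17 in NKT2, by -0.32 ± 0.17 in NKT1 and by 0.17 ± 0.17 in NKT17 cells, with overlapping libraries.

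**Figure D3:**
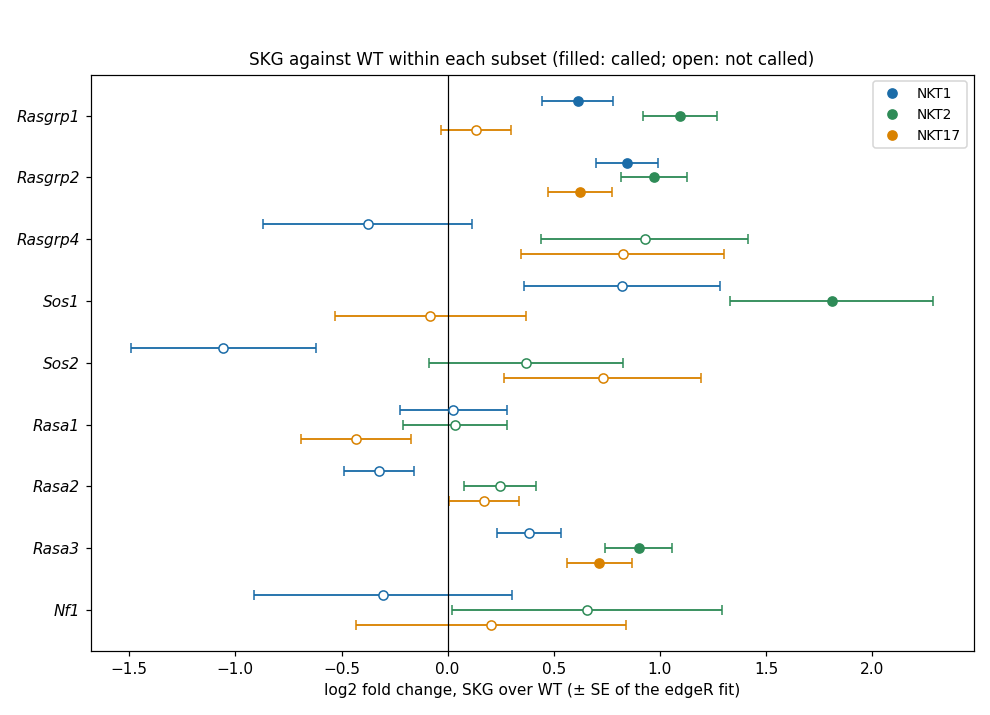
Log2 fold change of SKG over WT (x axis, ± SE of the edgeR fit) for the 9 tested members in NKT1, NKT2 and NKT17 cells. Filled points were called and open points were not. All 8 filled points lie to the right of 0, and Rasa1 lies near 0 in NKT1 and NKT2 cells.

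**Figure D4:**
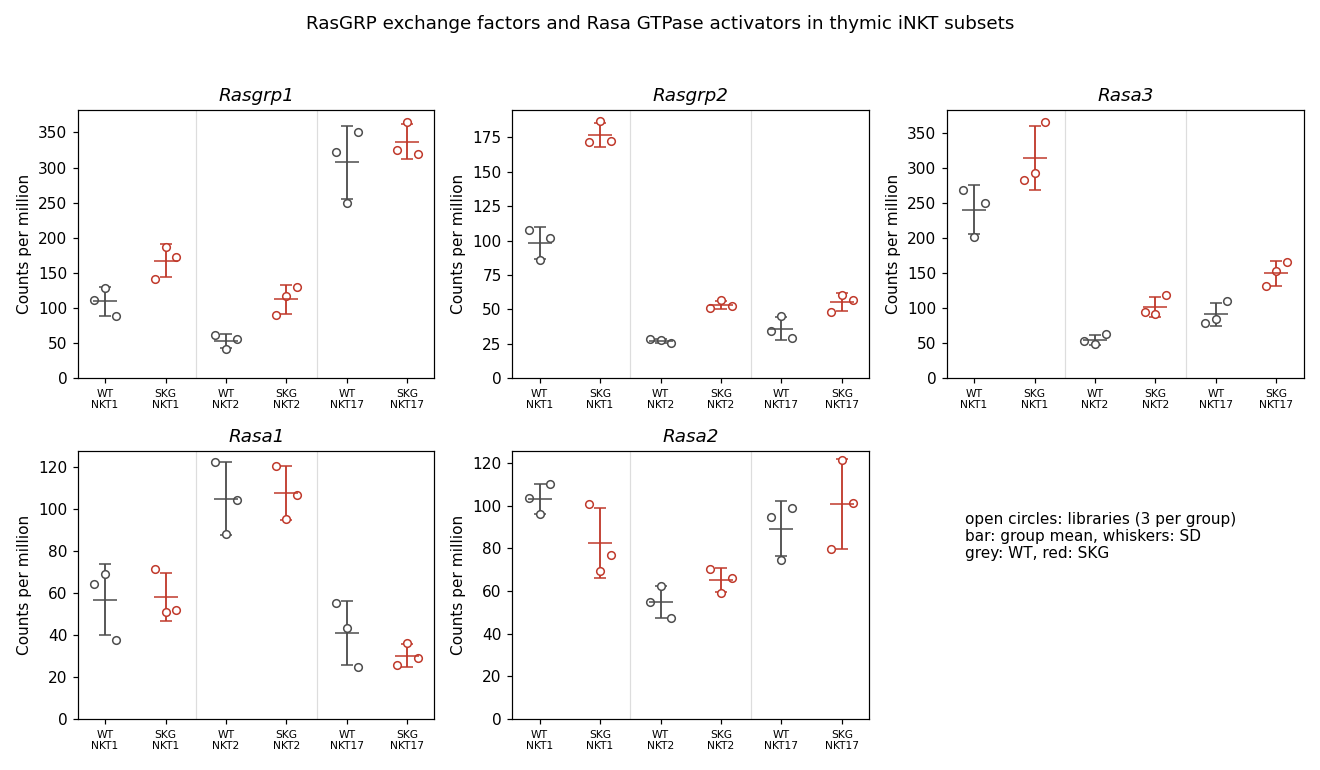
CPM of the 5 members with at least 100 reads in every library, by group (x axis), with WT in grey and SKG in red. Circles are libraries, bars means and whiskers SD (n = 3). The SKG circles of Rasgrp2 and Rasa3 lie above the WT circles in each subset, while those of Rasa1 and Rasa2 overlap.

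Sample titles carry a token whose meaning was not given, and 2 tokens were held by both genotypes, which gave 6 pairs of an SKG and a WT library of the same subset and token. As the 6 pairs rest on 2 tokens, they cannot be taken as independent replicates. The share of all tested genes higher in 6 of 6 pairs was not computed. Within these pairs Rasgrp2 was higher in SKG in 6 of 6, by 0.10 to 1.15 on the log2 scale, Rasgrp1 in 6 of 6, by 0.06 to 1.10, and Rasa3 in 6 of 6, by 0.22 to 0.97. Rasa2 was higher in 5 of 6, from -0.66 to 0.31, Rasa1 in 4 of 6, from -0.74 to 0.54, and Sos1 in 5 of 6, from -0.32 to 1.81. The smallest Rasgrp2 value was an NKT17 pair, with 48.2 CPM in SKG and 45.0 CPM in WT.

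The subsets of SKG mice were compared in the same way. Rasgrp2 was again higher in NKT1 than in NKT2 cells (log2 1.73 ± 0.15, adjusted p = 9.48e-09) and NKT17 cells (1.68 ± 0.15, adjusted p = 9.79e-09), and Rasgrp1 again higher in NKT17 than in NKT2 cells (1.58 ± 0.17, adjusted p = 3.55e-07) and NKT1 cells, where NKT1 minus NKT17 was -1.01 ± 0.17 (adjusted p = 7.09e-05). Rasa3 exceeded NKT2 by 1.63 ± 0.16 and NKT17 by 1.07 ± 0.15 in NKT1 cells (adjusted p = 3.64e-08 and 7.92e-06). Rasa1 was highest in NKT2 cells, at -0.89 ± 0.25 for NKT1 (adjusted p = 0.0143) and -1.83 ± 0.26 for NKT17 (adjusted p = 2.29e-05) relative to them, and NKT1 exceeded NKT17 cells by 0.94 ± 0.26 (adjusted p = 0.00954).

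Other subset differences of SKG cells lay near the 1.5-fold minimum. Rasgrp1 in NKT1 over NKT2 cells was 0.57 ± 0.17 and Rasa3 in NKT17 over NKT2 cells 0.56 ± 0.15, both with adjusted p under 0.1 (0.0176 and 0.0102) and under the fold minimum. Rasgrp1 passed it without SKG NKT1 replicate 1 (0.68), SKG NKT2 replicate 2 (0.60) or SKG NKT2 replicate 3 (0.70), and Rasa3 without SKG NKT17 replicate 1 (0.64) or SKG NKT2 replicate 3 (0.69). Rasa2 in NKT17 over NKT2 cells, 0.63 ± 0.17 (adjusted p = 0.00793), was under it without SKG NKT2 replicate 2 (0.56) or SKG NKT17 replicate 2 (0.47). In all, 3 members were called between SKG NKT1 and NKT2 cells (18.7% of all genes), 4 between SKG NKT1 and NKT17 cells (22.8%) and 3 between SKG NKT17 and NKT2 cells (18.8%). Sos1 and Sos2 were called in none of these 3.

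Over the 6 groups, Rasgrp2 fell from SKG NKT1 (177 ± 8.54 CPM) to WT NKT1 (98.4 ± 11.5), SKG NKT17 (55.3 ± 6.46), SKG NKT2 (53.1 ± 3.08), WT NKT17 (35.9 ± 8.29) and WT NKT2 cells (27.1 ± 1.49), and only SKG NKT17 and SKG NKT2 overlapped as neighbours. Rasa3 followed the same order of groups, from 314 ± 45.4 to 54.4 ± 7.43 CPM, with overlap only between SKG NKT2 and WT NKT17 cells. Across the 18 libraries, which share groups and normalization, log2 CPM of Rasgrp2 and Rasa3 correlated at Pearson's r = 0.935 and Spearman's rho = 0.944. Within the 6 libraries of each subset, WT and SKG together, r came to 0.822 for NKT1, 0.906 for NKT2 and 0.684 for NKT17 cells. Spearman's rho was 0.943, 0.657 and 0.771. Both genes were higher in every SKG than in every WT library of each subset, so these values include the difference between genotypes. Rasgrp1 and Rasa1 ran in opposite directions (r = -0.783 over 18 libraries).

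**Figure D5:**
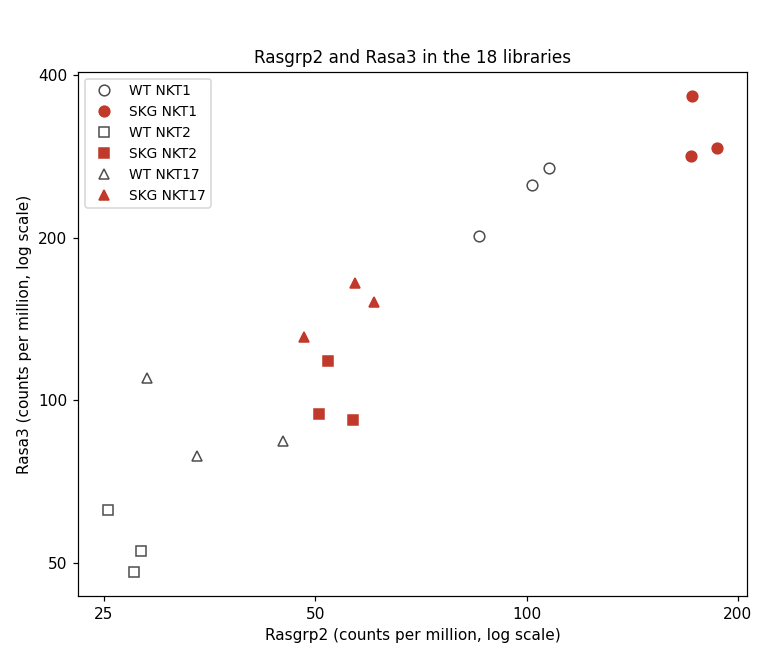
Rasgrp2 (x axis) against Rasa3 (y axis), both in CPM on log scales, in the 18 libraries. Symbols give the subset, open grey symbols WT and filled red symbols SKG. The libraries run from WT NKT2 at the lower left to SKG NKT1 at the upper right.

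Rasgrp2 and Rasa3 rose and fell together across the groups, although each correlated more closely with other genes, named below. The bases before their RefSeq starts are shown as a description, 5′ to 3′ on the strand of the gene (RefSeq, GRCm38.p6). A shared regulation of the 2 genes was not tested. Capitals mark CCAAT and GGGCGG on either strand (ATTGG and CCGCCC on the other). The Rasa3 window is chr8:13677588-13677837 on the minus strand, and the Rasgrp2 stretch is chr19:6399625-6399745 on the plus strand, cut where an annotated coding transcript begins.
Rasa3: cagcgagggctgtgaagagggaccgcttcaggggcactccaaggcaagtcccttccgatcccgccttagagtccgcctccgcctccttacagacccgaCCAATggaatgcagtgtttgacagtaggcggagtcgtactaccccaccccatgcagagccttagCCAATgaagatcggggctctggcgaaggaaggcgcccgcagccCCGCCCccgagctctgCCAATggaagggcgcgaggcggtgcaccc
Rasgrp2: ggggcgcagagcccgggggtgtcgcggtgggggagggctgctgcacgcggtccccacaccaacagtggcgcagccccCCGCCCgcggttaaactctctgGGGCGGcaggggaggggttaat

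In the 250 bases before the start, Rasa3 held 3 CCAAT and 1 GGGCGG, and Rasgrp2 held 0 CCAAT and 5 GGGCGG at this start and 0 and 2 at a second RefSeq start. Of 32851 RefSeq windows of this length, 33.8% held CCAAT and 32.7% GGGCGG. Neither gene held TCACAC, the core bound by T-box factors (12.3% of all windows), or AGGTCA, the core bound by ROR factors (14.0%), on either strand. RefSeq windows were found for 9 of the 10 members, and across their 11 windows TCACAC and AGGTCA each occurred only at 1 start of Rasgrp3. These are matches of letters and not binding sites.

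Genes with the most similar profile over the 18 libraries were, for Rasgrp2, Arhgdib (r = 0.951), Anxa1 (r = 0.948) and Mbnl1 (r = 0.947). For Rasgrp1 they were D1Ertd622e (r = 0.945), Slco3a1 (r = 0.941) and Gm2a (r = 0.940), and for Rasa3 they were Fam65b (r = 0.968), Gm11346 (r = 0.967) and Crim1 (r = 0.963). These 3 members had the widest range of group means.

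The other genes of the pathway were followed as lists of further exchange factors and GTPase activators, Ras-family GTPases, genes upstream of the exchange factors, adaptors that bind GTPase activators, and the Raf-MEK-ERK kinases. Of 38 symbols listed, 36 were found and 30 could be tested. Between WT subsets, 7 were called for NKT1 against NKT2 (6 higher), 10 for NKT1 against NKT17 (8 higher) and 5 for NKT17 against NKT2 cells (3 higher), where 27.5%, 24.7% and 20.0% of all tested genes were called. Between SKG and WT, 1 was called in NKT1 (higher), 4 in NKT2 (all higher) and 5 in NKT17 cells (4 higher), where 3.27%, 7.95% and 8.37% of all tested genes were called. The gene called in NKT1 cells was Rasa4 (log2 1.52, adjusted p = 0.00462), with a mean of 46 reads in SKG. The gene called lower in NKT17 cells was Mras, a Ras-family GTPase with 0 reads in every SKG NKT17 library and a mean of 7.67 reads in WT. Both are named here after their values were seen.

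Dgka, which encodes a kinase that removes the diacylglycerol on which RasGRP1 depends, was lowest in the WT subset where Rasgrp1 was highest. It was at 78.5, 104 and 94.6 CPM in WT NKT17 cells, 229.9, 199 and 241 CPM in WT NKT2 cells and 369, 323 and 346 CPM in WT NKT1 cells, apart in all pairs. NKT1 exceeded NKT17 cells by 1.91 ± 0.12 on the log2 scale (adjusted p = 2.90e-11), and NKT17 was below NKT2 cells at -1.27 ± 0.12 (adjusted p = 3.41e-08). In SKG it rose by 1.49 ± 0.12 in NKT17 cells (adjusted p = 4.30e-08), to 219, 272 and 285 CPM, and by 1.04 ± 0.12 in NKT2 cells (adjusted p = 2.82e-06), to 451, 421 and 504.7 CPM. In SKG NKT1 cells it was at 368 ± 19.9 CPM against 346 ± 23.0 in WT, and was not called. The 2 genes did not run opposite throughout, as Dgka was highest in WT NKT1 cells and Rasgrp1 lowest in WT NKT2 cells. Dgkz, the other diacylglycerol kinase gene listed, was called in none of the comparisons, and is named here after its values were seen.

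Grap, a GRB2-like adaptor, rose in SKG NKT2 cells by 1.06 ± 0.13 (adjusted p = 7.96e-06), with 186, 230.2 and 231 CPM against 111, 90.3 and 109 CPM in WT. In SKG NKT17 cells it rose by 0.65 ± 0.13 (adjusted p = 0.00220), a value of 0.57 and under the fold minimum without SKG NKT17 replicate 3. Prkcq, which encodes the diacylglycerol-responsive kinase PKCθ, was lower in WT NKT17 than in NKT2 cells at -0.88 ± 0.12 (adjusted p = 7.27e-06).

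Rasa4, a further GTPase activator of the GAP1 family, was highest in NKT17 cells, with 33.4, 31.1 and 44.1 CPM in WT against at most 4.10 CPM in WT NKT1 and NKT2 cells. In SKG NKT1 cells it was read at 8.36, 11.7 and 6.41 CPM. The log2 differences were 4.32 ± 0.31 over NKT2 (adjusted p = 4.29e-10) and, for NKT1 minus NKT17, -3.57 ± 0.29 (adjusted p = 1.40e-09). In SKG NKT17 cells it was at 62.9, 60.5 and 73.8 CPM, a log2 increase of 0.86 ± 0.24 (adjusted p = 0.0283) that was lost without WT NKT17 replicate 1 (0.79, adjusted p = 0.122), WT NKT17 replicate 2 (0.75, adjusted p = 0.108) or SKG NKT17 replicate 3 (0.76, adjusted p = 0.150). Rasal3, a GTPase activator of blood cells, was at 490 ± 38.1 CPM in WT NKT1 cells and exceeded NKT2 cells by 0.87 ± 0.11 (adjusted p = 1.88e-06).

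Of the GTPases, Rras was higher in WT NKT1 than in NKT2 (1.63 ± 0.35, adjusted p = 0.000998) and NKT17 cells (1.24 ± 0.34, adjusted p = 0.00867), and rose in SKG NKT17 cells by 1.52 ± 0.35 (adjusted p = 0.00584). Rras2 rose in SKG NKT2 cells by 1.37 ± 0.33 (adjusted p = 0.0131), at 85.2, 70.7 and 62.6 CPM against 47.0, 22.4 and 15.8 CPM. Dok1, an adaptor that binds Rasa1, was higher in WT NKT1 than in NKT2 cells by 1.13 ± 0.29 (adjusted p = 0.00465). The kinase gene Braf was higher in WT NKT1 than in NKT2 cells by 1.44 ± 0.29 (adjusted p = 0.000541) and rose in SKG NKT2 cells by 1.14 ± 0.30 (adjusted p = 0.0162). Its difference between WT NKT17 and NKT2 cells, 0.95 ± 0.29 (adjusted p = 0.0213), was lost without WT NKT2 replicate 3 (0.80, adjusted p = 0.110) or WT NKT17 replicate 3 (0.67, adjusted p = 0.159).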

How the data were processed

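Per the submitters' labels and the study's methods, poly-A RNA of sorted thymic iNKT cells was converted to full-length cDNA by a protocol adapted from Smart-seq2, tagged with Tn5 and sequenced as single-end 50-bp reads. The authors removed tRNA, rRNA, adapter and low-complexity reads, aligned with TopHat 1.4.1 and counted reads per gene with htseq-count in union mode. The methods name the mouse build mm9, while the submitters' processing notes list mm10, hg19, Bowtie 1.0.0 and HTSeq 0.7.1, and the annotation and strand setting were not given in the sources used here. The deposited values are raw read counts per gene symbol. The table also held 2 columns of no listed sample, which were not used.

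Counts were tested with edgeR 4.0.16 in R 4.3.3 (quasi-likelihood, robust, TMM scaling, filterByExpr by group) in a single fit of all 18 libraries, which leaves 12 residual degrees of freedom and assumes that the 6 groups share their spread. The 12 contrasts comprised 3 between WT subsets, 3 of SKG with WT, 3 between SKG subsets and 3 differences of SKG effects. The procedure was tested on simulated data. A deeper library has less counting error, and members with fewer than 100 reads in some library carry wide errors. No pair of replicates agreed within sampling noise. DESeq2 1.42.0, other scalings, filters and thresholds, and leaving out libraries were alternatives. The study's methods used DESeq2, and edgeR was made the main test.

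The members and lists were chosen with earlier results of these data known. All members were named. Pathway genes were named where called between WT subsets or between SKG and WT and averaging 50 counts or more in the group where they were higher, at most 4 per comparison by fold change. For the 3 members with the widest range of group means, the 3 genes of highest correlation over the 18 libraries were named. Positions and lengths came from GENCODE M1 (NCBIM37). No stretch of 50 bases of the coding transcripts of 9 members occurred in another coding gene, the exception being Rasgrp4, which shares bases with Fam98c.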

Additional observations from a re-analysis of the deposited data

Results flagged for a closer look

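The SKG effect on Rasgrp1 differed between NKT17 and NKT2 cells by a test of the difference itself, with a log2 value of -0.96 ± 0.24 (adjusted p = 0.0444 in edgeR). The call was lost in 7 of 21 alternatives, each leaving out 1 of the 12 libraries involved, with adjusted p of up to 0.152. Rasgrp1 rose from 52.8 ± 9.95 to 112 ± 20.5 CPM in NKT2 cells and was at 307 ± 52.3 and 337 ± 24.9 CPM in WT and SKG NKT17 cells (n = 3 each).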

How the results depend on the processing

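Of 108 pairs of a tested member and a comparison, 34 were called, and 28 of these kept the call in every alternative run, while 8 of the 74 others were called in at least 1. Rasgrp4, Sos1, Sos2 and Nf1 were not tested under the stricter filter on counts, and dropping the fold minimum cannot remove a call. The sign changed in at least 1 alternative for 22 pairs, of which 0 were called. The number of members called stayed within 1.5 times the reported one except for SKG against WT in NKT1 cells, which was 1 at an adjusted p under 0.05 and 1 to 2 with single libraries left out, SKG against WT in NKT17 cells, 1 to 2 with single libraries left out, and the difference of SKG effects between NKT17 and NKT2 cells, 0 to 2 with single libraries left out. Leaving out single libraries, the log2 difference of SKG and WT ranged for Rasa1 from -0.19 to 0.21 in NKT1 and -0.075 to 0.16 in NKT2 cells and for Rasgrp1 from -0.0022 to 0.25 in NKT17 cells, and Rasgrp2 between SKG NKT17 and NKT2 cells ranged from -0.014 to 0.15. The cause was not tested.

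Over all genes, 364 were called for SKG against WT in NKT1 cells and 207 with only the libraries compared, where fewer libraries estimate the spread. The difference of SKG effects between NKT17 and NKT2 cells had 244 calls, 155 at an adjusted p under 0.05, and that between NKT17 and NKT1 cells 464 and 278. Upper-quartile scaling shifted the median of all genes by -0.10 (log2) for WT NKT1 against NKT2 cells. The alternatives for named pathway genes were chosen after seeing the data. Of these, Rras2 in SKG NKT2 cells was not called with only the libraries compared (1.38, adjusted p = 0.101).

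Library pairs sharing a title token did not deviate together across genotypes (0 of 18 pairs with r over 0.1), and did in 12 of 18 pairs within a genotype. With the token as a replicate block, 6, 4 and 5 members were called between WT subsets and 2, 4 and 2 between SKG and WT in NKT1, NKT2 and NKT17 cells, the same numbers as without it. This block gives WT and SKG libraries of a token the same effect. Of the tokens, 1 was held by WT alone and 1 by SKG alone, so their libraries hold no comparison of SKG with WT within a token. It does not model deviations shared within a genotype, so the part of those deviations in the calls was not tested.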
